A study of Homo sapiens with 11 samples.

Results

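Repeat copies whose RNA was recovered with the J2 antibody in both decitabine libraries, and in no read of the control library, were examined in HCT116, a human cell line established from a colorectal carcinoma. A copy is a row of the deposited repeat tables, that is, an annotated repeat element of the genome. A copy was included when it had 0 reads in the siLuc DMSO library and 20 or more reads in both the siLuc DAC and the siStau1 DAC libraries. The rule found 699 copies among the 345370 with 20 or more reads in both DAC libraries, and among 5622516 copies in all. The reads themselves chose these copies, so their levels and their contrast with siLuc DMSO are described here and not tested. The 345370 copies read in both DAC libraries serve as the background throughout, and the 699 are 0.202% of them.

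The 3 J2 libraries came from cells given a control siRNA that targets luciferase (siLuc) or one that targets Staufen1 (siStau1), a double-stranded RNA-binding protein. The siLuc cells were kept in the solvent DMSO or in decitabine (DAC), a cytidine analog that inhibits DNA methyltransferases, at 500 nM for 5 days, and the siStau1 cells of this set were kept in DAC. Each J2 group is 1 library, so there is no replicate check and no test between libraries. Total RNA came from 8 further libraries, 2 for each pairing of siLuc or siStau1 with DMSO or DAC. All groups are transfected cells of the same line. J2 is an antibody against double-stranded RNA. The shared protocol speaks of an antibody to Staufen1 and the names of these 3 libraries of J2, so which was used is uncertain. In RNA from bulk cells, fewer cells that carry an RNA and less of it per cell cannot be told apart.

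Repeat copies are remnants of mobile elements that inserted at different times. LINEs, such as L1 and the older L2 and CR1, and SINEs, such as the primate Alu and the older MIR, spread through an RNA intermediate. LTR elements include endogenous retroviruses, and DNA transposons such as hAT-Charlie and TcMar-Tigger moved as DNA. Many copies lie in introns and are transcribed as part of a gene. Pairs of inverted copies, and copies transcribed from both strands, can form double-stranded RNA, which innate immune sensors recognise. DNA methylation is known to keep many young elements silent.

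Reads on repeats numbered 71473124 for siLuc DMSO, 68944777 for siLuc DAC and 83037330 for siStau1 DAC. The siLuc DAC library stood apart in its own missing copies. With 20 or more reads in both other libraries, 7605 of 354182 copies (2.15%) had 0 reads in siLuc DAC and 13 of 309264 (0.0042%) had 0 in siStau1 DAC, against the 0.202% for siLuc DMSO. The targeted mRNA, STAU1, had total RNA levels of 35.5 FPKM (fragments scaled to transcript length and library size) with siLuc and 29.98 with siStau1 under DMSO, and of 33.7 and 27.1 under DAC. In the authors' deposited table neither knockdown difference was called (q-values of 0.767 and 0.685), and for the J2 libraries the knockdown cannot be checked in these files. The library labelled siStau1 DAC is named as labelled.

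The copies were thinly read. In siLuc DAC the lowest had 20 reads, the median 29 and the highest 190. In siStau1 DAC the lowest had 20, the median 25 and the highest 183. Medians over the background copies were 58 and 71 reads there and 59 for siLuc DMSO. Together the 699 copies held 0.0342% of the siLuc DAC reads on repeats and 0.0232% of those in siStau1 DAC. Most copies therefore sat close to the limit of the rule: 151 had exactly 20 reads in the lower DAC library, 12 of them in both. At least 30 reads in both DAC libraries were found for 104 copies, at least 50 for 9 and at least 100 for 1.

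For a copy fixed in advance, a count of 0 allows up to 3 reads in siLuc DMSO. Against that floor, per library and scaled to the totals on repeats, 20 reads are 6.91-fold higher in siLuc DAC. In siStau1 DAC they are 5.74-fold higher. At the medians of 29 and 25 reads the copies were 10.02-fold and 7.17-fold above the floor. With the authors' own library factors, whose origin is not stated, these values were 18.6-fold and 10.6-fold. These values take the DAC reads as exact, and the copies were chosen for their 0 siLuc DMSO reads, so they are not lower bounds. They are too high if both mates of a read pair were counted, which was not tested. Background copies with 1 to 4 siLuc DMSO reads numbered 391, 1382, 755 and 2003, and those with 5 to 8 reads 1195, 2512, 1585 and 2936. Even read numbers thus outnumbered the odd numbers beside them. Even read numbers made up 57.1% of the copies' values in siLuc DAC and 60.1% in siStau1 DAC, against 52.02% and 53.2% of the background.

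Just outside the rule, 391 background copies had 1 read in siLuc DMSO and 1382 had 2. The most read of these were an L1MB5 copy with 99 siLuc DAC and 167 siStau1 DAC reads, a BLACKJACK copy with 130 and 84, and an L1MB3 copy with 155 and 84, each with 2 siLuc DMSO reads. By the lower DAC library, they had more reads than all but 1 copy inside the rule. Below the read limit, 338 copies with 0 reads in siLuc DMSO had 18 or 19 reads in the lower DAC library. Copies at the inner edge included an L1M4 copy with 24 and 20 DAC reads, a CR1_Mam copy with 24 and 20, and an L2c copy with 33 and 20.

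**Figure D1:**
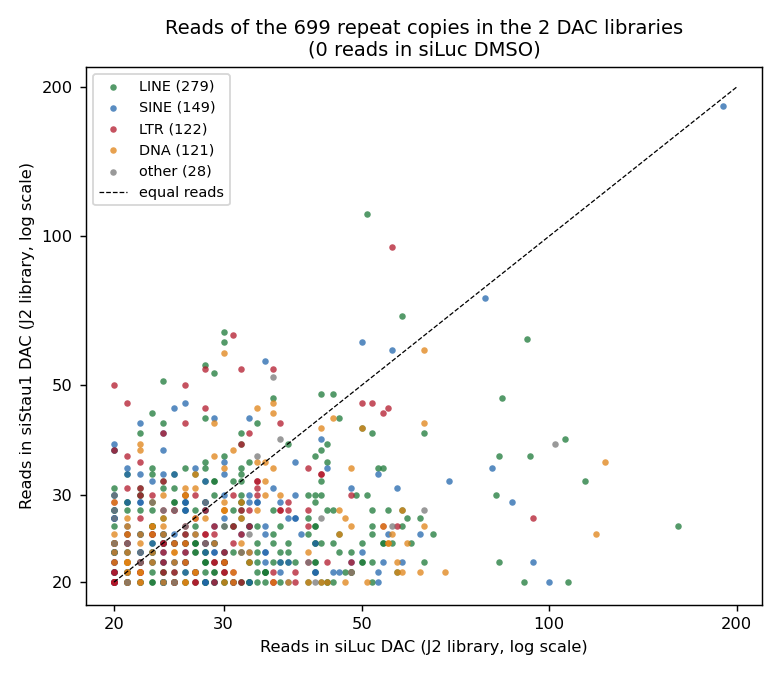
Each point is 1 of the 699 copies, with its reads in the siLuc DAC library (x axis, log scale) and in the siStau1 DAC library (y axis, log scale), coloured by repeat class; the dashed line marks equal reads. Most points crowd toward 20 reads, 425 copies had more reads in siLuc DAC and 228 more in siStau1 DAC, and a MIR3 copy stands alone at 190 and 183 reads.

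By class, LINE copies led with 279 of the 699 (39.9%, Wilson 95% interval 36.3% to 43.6%), against 12.7% of the background. SINE copies numbered 149 (21.3%), against 68.9% of the background. LTR copies, the class with the endogenous retroviruses that the series title names, numbered 122 (17.5%, 14.8% to 20.4%), against 9.42%. DNA transposons numbered 121 (17.3%), against 4.66%. The other 28 copies (4.01%, against 4.34%) were 22 simple repeats, 2 low-complexity tracts, 2 of unknown class, 1 tRNA and 1 RNA copy. Intervals on shares of copies treat copies as separate draws.

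Within SINE, Alu and MIR parted. Alu made up 60.6% of the background and 3.58% of the 699 copies, 25 of 209304, while MIR made up 8.13% of the background and 17.2% of the 699, 120 of 28094. Outside Alu, 674 of 136066 background copies met the rule (4.95 per 1000), and for MIR the share was 4.27 per 1000. Outside Alu the picture changed for LTR copies: they were 18.1% of the 674 copies and 23.9% of the background, so the direction turned. LINE copies remained above their background there, with 41.4% against 32.3%, as did DNA transposons, with 17.95% against 11.8%. SINE copies outside Alu were 18.4% against 20.97%.

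The classes were also compared among copies with like reads in the lower DAC library; the other DAC library was not matched, and its reads differ by class. Among background copies with 20 or 21 reads in the lower DAC library, the share with 0 reads in siLuc DMSO was 34.3 per 1000 for DNA transposons (44 of 1281), 26.9 for LINE (94 of 3488), 18.5 for MIR (39 of 2107), 18.3 for LTR (42 of 2290) and 1.15 for Alu (12 of 10414). From 22 to 23 reads it was 17.6, 19.3, 14.5, 10.9 and 0.642 per 1000 in the same order, and from 24 to 25 reads 14.7, 15.6, 10.6, 9.56 and 0.351. From 30 to 34 reads it was 6.39, 5.10, 3.75, 4.27 and 0.191 per 1000, and from 50 to 69 reads 0.457, 0.531, 0.518, 0.227 and 0. Alu was lowest in each of these intervals, while DNA transposons and LINE, and MIR and LTR, changed places between them. Alu copies at 20 or 21 DAC reads had a median of 28 reads in siLuc DMSO and other copies a median of 14. The sources used here do not say how a read that matches several alike copies was counted, and its part in the low Alu share was not tested.

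**Figure D2:**
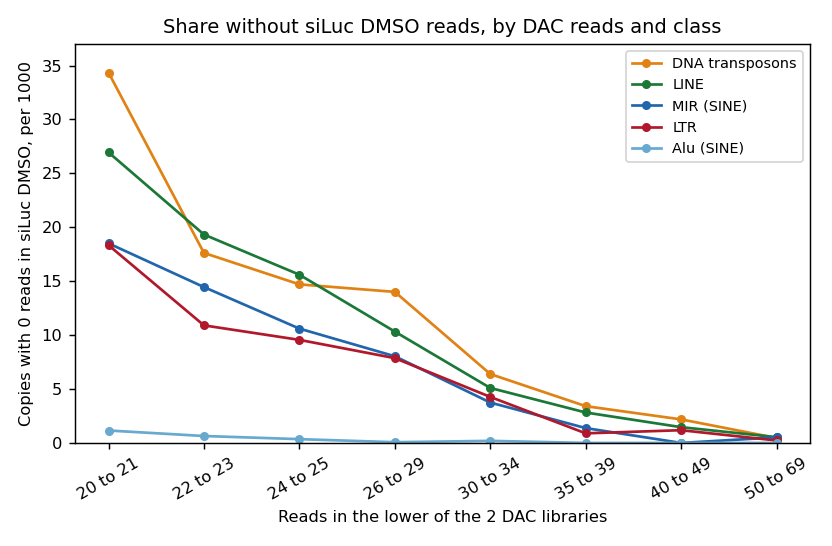
Lines give, for 5 groups of repeats, how many of 1000 copies had 0 reads in siLuc DMSO (y axis) among copies with the given number of reads in the lower of the DAC libraries (x axis). From the first to the last interval the share falls in each group, from 34.3 to 0.457 per 1000 for DNA transposons, and the Alu values are 1.15 per 1000 or less.

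The 2 DAC libraries could also be used separately. Of 7726 copies with 0 reads for siLuc DMSO and 20 or more for siLuc DAC, 699 (9.05%) had 20 or more reads in siStau1 DAC, 1264 (16.4%) had 0, and the median there was 6 reads. Of 2289 copies with 0 reads in siLuc DMSO and 20 or more in siStau1 DAC, the same 699 (30.5%) had 20 or more in siLuc DAC, 212 (9.26%) had 0, and the median was 12. Copies with 20 or more reads for both siLuc DMSO and siLuc DAC had a median of 80 in siStau1 DAC, and 96.1% of them had 20 or more, but they were also deeper in siLuc DAC itself, with a median of 64 reads against 25. Most copies that met the rule in one DAC library were thus under 20 reads in the other.

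Chosen by siStau1 DAC alone, without the siLuc DAC library, LINE copies were 31.8% of the 2289, against 12.9% of all copies with 20 or more reads there. LTR copies were then 21.2% against 10.2%, DNA transposons 15.2% against 4.74% and SINE copies 27.2% against 67.9%. Chosen by siLuc DAC alone, LINE copies were 49.4% of the 7726 against 15.8%, and LTR copies 10.7% against 9.78%. The LTR excess over background was thus 11.05 percentage points with siStau1 DAC alone and 0.967 with siLuc DAC alone. The copies missing from siLuc DAC had another makeup: of those 7605, LTR copies were 20.6% against 8.30% of their background, LINE copies 13.7% against 10.1% and DNA transposons 2.81% against 3.38%.

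Among LINE families, L1, the LINE that is still active in humans, gave 138 copies of 21461 (6.43 per 1000). L2 gave 111 of 19272 (5.76), CR1, which includes L3, 20 of 2362 (8.47) and RTE-BovB 7 of 369 (18.97). All 7 RTE-BovB copies were MamRTE1, an ancient mammalian element. The L2 names gave 36 L2c, 31 L2a, 19 L2b, 13 L2 and 10 L2d2 copies. Background copies of L2, which were themselves selected by their DAC reads, had median reads of 31 for siLuc DMSO, 48 for siLuc DAC and 50 for siStau1 DAC.

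Within L1, names were grouped by age. Names that begin with L1M, which mark L1 elements shared among mammals, gave 120 of 12422 background copies (9.66 per 1000). Names of primate L1 (L1HS, L1PA, L1PB and L1P) gave 12 of 7994 (1.501 per 1000). At 20 to 29 reads in the lower DAC library the shares were 24.8 and 5.64 per 1000. The low primate share was that of L1PA, with 7 of 6598 (1.06 per 1000, and 3.75 at 20 to 29 reads). L1PB, an older primate group, gave 4 of 703 (5.69 per 1000, and 20.4 at 20 to 29 reads), between L1MA with 16.04 and L1MB with 24.5 at those reads. L1HS, the youngest, gave 0 of 108, and HAL1, an L1 relative, 6 of 1012. The L1M background copies had medians of 25 siLuc DMSO and 53 siLuc DAC reads, and the primate L1 copies 59 and 71. The groups L1ME (42 of 3717), L1MC (29 of 2555) and L1MD (8 of 747) lay at 11.3, 11.4 and 10.7 per 1000, and L1MB (20 of 2227) and L1MA (9 of 1305) at 8.98 and 6.90.

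DNA transposons no longer move in the human genome. TcMar-Tigger gave 43 of 3590 background copies (11.98 per 1000) and hAT-Charlie 61 of 9493 (6.43). Of the hAT-Charlie copies, 14 were MER5A and 7 were MER103C, the latter of 234 background copies (29.9 per 1000). MER44C, a Tigger element, gave 3 of 50 (60.0 per 1000), the highest share of the names with 3 or more copies and a background of 50 or more. By that measure it was followed by L1ME4c (4 of 86, 46.5 per 1000), L1MC2 (3 of 81), L1ME2z (4 of 109), L1ME2 (6 of 167), Tigger19a (3 of 95), MER103C and LTR67B (3 of 139). Shares that rest on 3 or 4 copies carry a wide counting error.

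Among LTR families, ERVL-MaLR, ancient elements related to ERVL, gave 54 of 16285 (3.32 per 1000). ERVL gave 35 of 7294 (4.80), ERV1 25 of 6813 (3.67), and ERVK, the family with the youngest human endogenous retroviruses, 2 of 1051 (1.90). Each of these family shares lay below the 4.95 per 1000 of all background copies outside Alu. The MLT1 names made up 46 of 11025 (4.17 per 1000), and THE1, a younger MaLR group, 2 of 2950. The 25 ERV1 copies included 5 of 403 with MER4 names (12.4 per 1000), 2 of 214 HERVH-int, 2 of 24 LOR1-int and 2 of 96 MER39 copies. They also held 1 of 125 MER41B copies. HERVH, an ERV1 group known from pluripotent cells, gave 2 of 235 background copies, with 38 and 37 reads in siLuc DAC and 28 in siStau1 DAC for each. The 2 ERVK copies were an LTR3B with 36 siLuc DAC and 54 siStau1 DAC reads and a MER11C with 20 in each.

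Several young retroviral groups are small in the background and had no copy that met the rule. At the share of all background copies, 2.02 per 1000, none of these groups but LTR12 would hold a whole copy. Alu copies, most of the background, lower that share. Outside Alu it was 4.95 per 1000, at which LTR12 and LTR5 would each hold a whole copy or more. Whether the zeros differ from either share was not tested. LTR12 names gave 0 of 639 background copies, HERV9 0 of 110, LTR7 0 of 73, HERVK 0 of 183 and LTR5 0 of 238. Median reads of the LTR12 copies were 77 for siLuc DMSO, 71 for siLuc DAC and 102 for siStau1 DAC, so most were already read in the control library. SVA, a young composite element outside the LTR class, gave 0 of 892 and, like LTR12, would hold a whole copy at 2.02 per 1000. Internal parts of LTR elements gave 18 of 5137 (3.50 per 1000) and the remaining LTR copies 104 of 27408 (3.79 per 1000).

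MIR, a SINE older than the split of the placental mammals, gave 45 MIRb, 32 MIR, 24 MIRc and 18 MIR3 copies. MIRb had more of the 699 copies than any other repeat name, yet at 4.18 per 1000 its share was below that of L2c (7.74) or L3 (6.99, 12 copies). L1MB7 and L1MC4 gave 10 copies each, at 14.9 and 13.5 per 1000. The 25 Alu copies were 11 AluJ, the oldest branch, of 49672, 8 AluS of 136463, 2 AluY of 19688 and 4 monomeric FLAM or FRAM copies of 3119. Per 1000 these are 0.221, 0.0586, 0.102 and 1.28.

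The 699 copies carried 259 different repeat names, of which 157 occurred once, while the background held 3688. Of 65 families in the background, 32 had a copy that met the rule, 12 had 5 or more, and the other 20 held 38 copies between them.

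**Figure D3:**
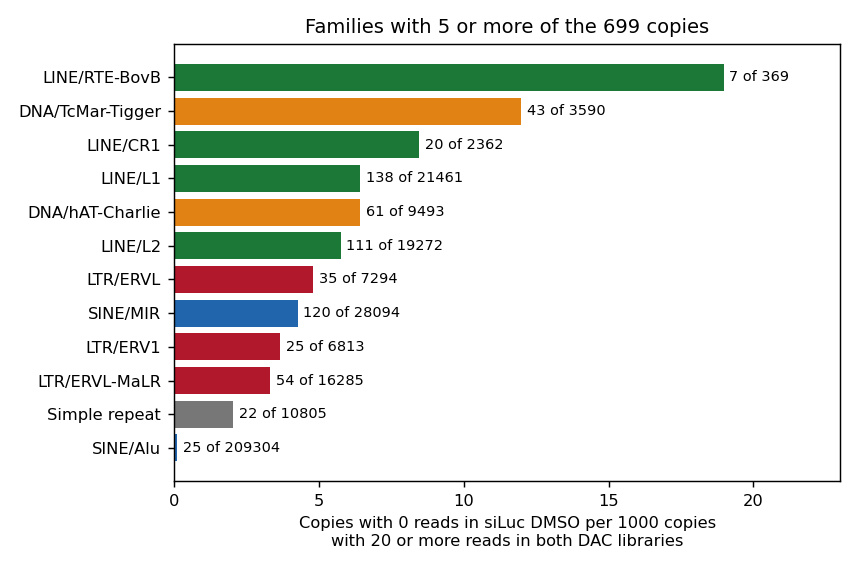
Bars give, for the 12 families with 5 or more of the 699 copies, the number of copies with 0 reads in siLuc DMSO per 1000 background copies (x axis), with both numbers printed beside the bar. Bars run from 18.97 per 1000 for RTE-BovB, on 7 copies, to 0.119 for Alu, and the LTR families lie between 3.32 and 4.80.

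The deposited files give no base sequence for these copies except the unit of each simple repeat, which is part of its name. The 22 simple repeats had units of 1 (1 copy), 2 (10), 3 (6), 5 (1) and 6 bases (4). Of the 10 with a unit of 2 bases, 8 were CA repeats, read on either strand and from either base. The most read was a (CA)n tract with 102 reads in siLuc DAC and 38 in siStau1 DAC, the highest in both libraries. By the lower DAC library a (GT)n tract with 34 and 36 came next, and by siLuc DAC a (GTATTT)n tract with 63 and 28 and an (ATC)n tract with 56 and 26.

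By reads in the lower DAC library, the highest copy was a MIR3 with 190 siLuc DAC and 183 siStau1 DAC reads. Against the floor of 3 siLuc DMSO reads, scaled to totals, it was 65.7-fold higher in siLuc DAC and 52.5-fold higher in siStau1 DAC. It was followed by an LFSINE_Vert copy, a SINE kept from early vertebrates, with 79 and 75 reads, and an L2c copy with 92 and 62. By siLuc DAC alone, an L1MC4 copy with 161 reads and 26 in siStau1 DAC would come second. A Kanga1 DNA transposon had 63 and 59 reads, an L1ME4c copy 58 and 69, and a MIRc copy 56 and 59.

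Of the 15 copies highest in the lower DAC library, 5 were LINE, 5 LTR, 4 SINE and 1 a DNA transposon. Of background copies with 50 or more reads in both DAC libraries, 10.2% were LINE, 8.49% LTR, 73.2% SINE and 3.64% DNA transposons. That limit is not matched to the 15 copies, which reach down to 44 reads in the lower DAC library. The LTR copies were MLT1I with 56 reads in siLuc DAC and 95 in siStau1 DAC, MER39B with 50 and 46, MLT1G1 with 52 and 46, MER21C with 55 and 45, and LTR24C with 54 and 44. The remaining SINE was a MIRb with 50 and 61. The remaining LINE copies were L1ME2 with 51 and 111, MamRTE1 with 84 and 47 and L1MD with 45 and 48. No class held most of these 15 copies, which are too few to place a class against its background.

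Between the DAC libraries, the 699 copies had a median log2 ratio of siStau1 DAC over siLuc DAC of −0.42 when scaled to the totals on repeats (95% interval of the median by order statistics, −0.48 to −0.38). The background median was 0.00. The authors' factors put these medians at −0.75 and −0.32 and totals outside Alu at −0.21 and 0.21; a scaling shifts both by the same amount and cannot change their gap of −0.43. The interval treats copies as separate draws and does not cover variation between libraries, since each group is 1 library. Both libraries entered the rule, so the median ratio is a description. The limit of 20 reads was set before scaling, for these copies and for the background. A copy with equal reads in both libraries therefore has a ratio of −0.27. At the limit, more reads are needed to be 2-fold higher in siStau1 DAC than to be 2-fold lower. How far this shaped the ratios and the counts below was not tested. More than 2-fold lower in siStau1 DAC were 122 copies (17.5%), against 6.24% of the background, and more than 2-fold higher was 1 (0.143%), against 5.66%. The 88908 background copies with 20 to 30 reads in the lower DAC library, whose reads in the other were not matched, had a median of −0.07, with 11.3% more than 2-fold lower and 8.67% more than 2-fold higher.

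The lowest ratio was that of an L1MC4 copy with 161 reads in siLuc DAC and 26 in siStau1 DAC (log2 ratio −2.88). An L1MA4A copy with 107 and 20 reads (−2.66), a MIR3 copy with 100 and 20 (−2.56), an X1_DNA Tigger copy with 119 and 25 (−2.50) and an L1MB7 copy with 91 and 20 (−2.43) came next. The highest was an MLT1J copy with 20 and 50 reads (1.03), then the L1ME2 copy named above (0.85), a MER4D copy with 21 and 46 (0.84), an L2c copy with 30 and 64 (0.81) and an L3 copy with 24 and 51 (0.80). The median ratio was −0.52 for L1, −0.55 for L2, −0.42 for MIR, −0.43 for ERVL-MaLR, −0.33 for ERVL, −0.39 for ERV1 and −0.27 for Alu. The background medians of these families were −0.33, −0.21, −0.07, −0.14, −0.16, −0.15 and 0.11 in the same order, so the copies lay lower than their family's background in each, by differing amounts. The Alu median of −0.27 is that of a copy with equal reads in both libraries. Both libraries entered the rule, so these family medians are a description too.

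The table's rows were then used to look around the copies. The tables give no positions, but neighbouring rows had like read numbers. Pearson's r of log2(reads + 1) between rows 1 apart was 0.461 for siLuc DMSO, 0.609 for siLuc DAC and 0.521 for siStau1 DAC, over 5622515 pairs that share a library. Between rows 100000 apart it was 0.011 in each. What sets the order is not stated.

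The surroundings of the 699 copies were read with and without Alu rows. The 10 nearest rows, 5 on each side, held median reads of 191 for siLuc DMSO, 242 for siLuc DAC and 245 for siStau1 DAC, and 3 of the 699 copies had 0 siLuc DMSO reads there. The background medians were 334, 333 and 402. With Alu rows left out, the medians were 25, 72 and 50 reads, against 43, 90 and 80, and 51 copies (7.30%, against 6.29%) had no siLuc DMSO read. On their 2 adjacent rows, 129 copies (18.5%) had 0 siLuc DMSO reads, against 10.8% of the background. Outside Alu the siLuc DMSO median on those 2 rows was 1 read, and 340 copies (48.6%) had 0, against 40.8%. The MIR3 copy with the most reads had, on its 2 adjacent rows, 276 reads for siLuc DMSO, 406 for siLuc DAC and 510 for siStau1 DAC. The L2c copy with 92 and 62 DAC reads had 842, 1058 and 1732 there. An MLT1G1 copy was a thinner case, with 16, 91 and 9 reads on its 10 nearest rows.

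These surroundings leaned toward siLuc DAC. Scaled to totals, the 10 nearest rows held more in siLuc DAC than in siLuc DMSO for 504 of the 699 copies (72.1%), against 54% of the background, and more in siStau1 DAC for 419 (59.9%), against 55.5%. The median log2 ratio to siLuc DMSO was 0.40 in siLuc DAC and 0.10 in siStau1 DAC, against 0.06 and 0.04 in the background. Outside Alu the medians were 1.58 and 0.74, against 0.95 and 0.52. Copies outside Alu with 1 or more siLuc DMSO reads and 20 to 40 in the lower DAC library, 63127 in number, had neighbours higher in siLuc DAC for 58.9% and in siStau1 DAC for 60.3%. Against these, the 699 copies had the larger share in siLuc DAC and about the same share in siStau1 DAC when all neighbours were counted. With neighbours outside Alu their share was also larger in siStau1 DAC, 82.3% against 77.3%, with median log2 ratios of 0.74 and 0.43. These neighbours come from the libraries that chose the copies, so the values are a description.

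**Figure D4:**
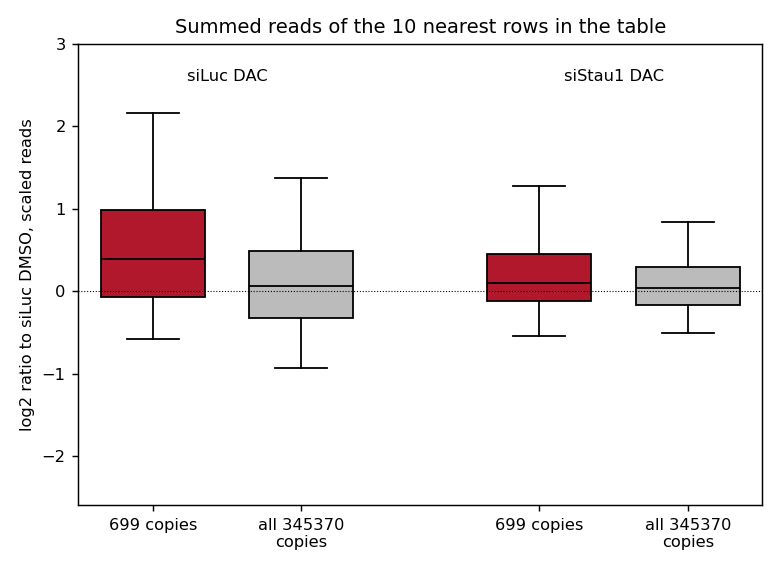
Boxes give the log2 ratio to siLuc DMSO of the summed reads on the 10 nearest table rows, scaled to library totals, for the 699 copies (red) and all 345370 background copies (grey); lines in the boxes are medians, boxes the quartiles and whiskers the 5th and 95th percentiles. The red median lies at 0.40 in siLuc DAC and at 0.10 in siStau1 DAC, and the grey medians at 0.06 and 0.04.

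The copies were scattered over the table. No 2 of them were on adjacent rows, 6 pairs lay within 10 rows of each other and 45 within 100. The closest pair, 2 rows apart, were L1ME4b copies with the same number in their names, one with 65 siLuc DAC and 25 siStau1 DAC reads and the other with 52 and 26. A MIRb copy (54 and 22 reads) and a Charlie19a copy (59 and 24) lay 4 rows apart, and 2 MIRb copies (24 and 25 reads, 25 and 20 reads) 5 rows apart. Among the other pairs within 10 rows, an X12_DNA copy had 35 and 32 reads and an L1M5 copy 58 and 26.

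Total RNA, from other libraries, gave a measure the rule did not use. A list of 20 gene names was read from the authors' deposited table. It gives 1 FPKM value per group and no value per library, so no spread can be given. The genes derive from endogenous retroviruses or related LTR elements, except the HHLA genes, which are named for their association with LTRs of an endogenous retrovirus. Of the 20 names, 18 were in the table and 11 were under 1 FPKM in all 4 groups. For DAC against DMSO in siLuc, 9 were tested and 3 were called higher at a q-value under 0.05 in the authors' deposited table, where 8.71% of all 17504 tested genes were called higher, 4.78% lower and 13.5% in either direction. In siStau1, 2 of 9 were called higher, where 4.56% of all 16979 were called higher, 2.89% lower and 7.46% in either direction. None of the list was called lower in either. For knockdown in DMSO, 0 of 6 were called in the authors' deposited table, beside 0.333% of 15893 genes higher, 0.466% lower and 0.799% in either direction. For knockdown in DAC, 0 of 9 were called there, beside 0.434% of 17263 higher, 0.469% lower and 0.904% in either direction.

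ERVH48-1 (ENSG00000233056.2, chromosome 21, 42916802 to 42925646, hg38), which encodes suppressyn, an inhibitor of retroviral envelope fusion, was listed at 0 in both DMSO groups. Under DAC its level was 0.902 FPKM with siLuc and 1.21 with siStau1, with a q-value of 0.00162 for each in the authors' deposited table. PEG10 (ENSG00000242265.5) is a gag-like gene of LTR retrotransposon origin. The authors list it in a locus on chromosome 7, 94509218 to 94669695, and such a locus can be wider than the gene. PEG10 went from 1.55 to 6.41 FPKM in siLuc (q-value 0.0285 in the authors' deposited table). In siStau1 it went from 2.58 to 9.58 (q-value 0.0254 there). ERVK13-1 (ENSG00000260565.6, chromosome 16, 2660348 to 2673444) went from 0.902 to 4.56 FPKM in siLuc (q-value 0.0149 in the authors' deposited table) and from 1.77 to 3.096 in siStau1 (q-value 0.531 there). The difference between the siRNA arms was not tested.

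The other genes tested in these comparisons were not called. ERVW-1, the gene of the placental fusion protein syncytin-1, went from 0.157 FPKM with DMSO to 0.978 with DAC in siLuc and from 0.00645 to 0.597 in siStau1 in the authors' deposited table. ERVMER61-1 was listed at 0 with DMSO and had 0.698 and 0.766 FPKM with DAC. HHLA3 had 1.79, 5.89, 2.62 and 3.42 FPKM in the same order, and ERVK3-1 had 31.5, 48.8, 27.8 and 48.1. ERV3-1 had 4.34, 2.51, 1.95 and 2.51 FPKM, and ERVMER34-1 had 8.20, 7.21, 10.7 and 7.22. The median log2 ratio of the tested genes, with 0.1 FPKM added, was 1.98 for DAC in siLuc and 0.79 in siStau1, against 0.23 and 0.11 over all tested genes. The median in siLuc fell to 0.77 with 1 FPKM added and to 1.15 over the genes with 1 FPKM or more in a group. Ratios also moved with the GC content of transcripts: over 20 bins of genes with 1 FPKM or more in both groups, the median for DAC in siLuc went from −0.89 at the lowest GC content to 1.19 at the highest. The bins at the GC content of ERVH48-1, PEG10 and ERVK13-1 had medians of 0.06, −0.29 and −0.01 there. ERVH48-1 and ERVK13-1 were under 1 FPKM in siLuc DMSO, so they are not among the genes of those bins. Which of these genes hold any of the 699 copies was not analysed here, because the tables give no positions for them.

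**Figure D5:**
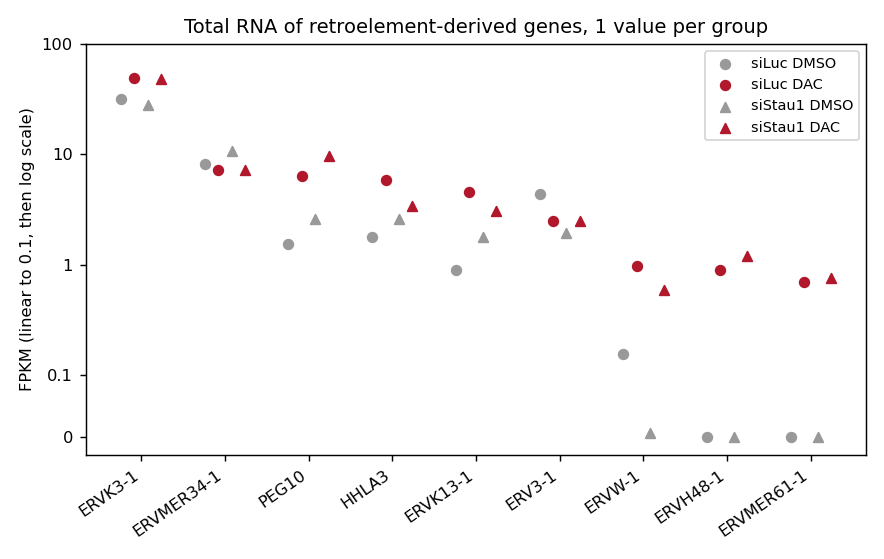
Points give the FPKM (y axis, linear to 0.1 and log above) of the 9 listed genes tested for DAC, 1 value per group. DMSO is in grey and DAC in red, with siLuc as circles and siStau1 as triangles. ERVH48-1 and ERVMER61-1 lie at 0 with DMSO and between 0.698 and 1.21 with DAC, while ERVMER34-1 stays between 7.21 and 10.7.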

How the data were processed

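RNA was measured in 11 libraries of HCT116 cells, 3 J2 and 8 total RNA. The submitters' processing notes name bcl2fastq 2.20, HISAT2 2.1.0, featureCounts, DESeq 1.36.0, Cuffdiff 2.2.1, Cuffnorm 2.2.1 and the build hg38, without saying which made which file. The 3 deposited J2 tables give a signal per repeat copy and library: every value was a whole multiple of the column's minimum (tolerance 1e-04), so reads are the signal divided by its minimum (1, 1.92 and 1.27), minus 1. The deposited logarithm to base 1.5 of each ratio, an other-scale score, was not used. The total RNA table holds FPKM values of the authors, 1 per group, with p-values and q-values of the authors in Cuffdiff's layout, per the file headers. A planned edgeR count test needs values per library and was not run; the authors' calls were used.

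Here the rule was applied to reads, and copies were split by the class, family and repeat name in the row names. Classes marked with a question mark were counted with their class. Ratios used totals on repeats and 0.5 reads added. Named items were all classes, families with 5 or more copies, the 12 repeat names with most copies and the 8 with the highest share (L1MB7, tied, was added), the 15 copies with most reads and the 5 highest and lowest ratios; LTR12, HERV9, LTR7, HERVH, HERVK, LTR5, SVA, L1, Alu and MaLR groups, close pairs and neighbour examples were chosen later. The copies and lists were chosen with earlier results of these data known. Python 3.11.15, numpy 2.4.6, pandas 2.3.3 and scipy 1.17.1 were used. The rule was also run on simulated rows built to meet it, which checks only that it was applied as written. GC content is that of each gene's longest GENCODE transcript. Other read limits, scalings, backgrounds, libraries and FPKM pseudocounts were tried as alternatives. Depth was 68944777 to 83037330 reads on repeats per J2 library; that of total RNA is unknown.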

Additional observations from a re-analysis of the deposited data

How the results depend on the processing

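The number of copies followed the rule closely. It was 2472 with up to 2 reads allowed in siLuc DMSO, 7175 and 9 with a minimum of 10 and 50 reads, 7726 with siLuc DAC alone, 2289 with siStau1 DAC alone, 351 with reads scaled to the smallest library, 129 with 0 reads also on the 2 adjacent rows, and 7605 and 13 when siLuc DAC or siStau1 DAC was the library at 0.

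Differences of a class's share from its background are in percentage points. The main values were 27.2 for LINE, −47.5 for SINE, 8.03 for LTR, 12.7 for DNA and −0.337 for other copies. With a minimum of 10 reads SINE was −41.4, DNA 10.02 and other copies 0.0359; with 50 reads, on 9 copies, LTR was 2.62, LINE 23.1, SINE −28.7, DNA 7.48 and other −4.48. With up to 2 siLuc DMSO reads other copies were at 0.229, and with the background weighted to the copies' reads SINE was −41.4. Outside Alu LTR reversed to −5.82, and LINE was 9.13, SINE −2.57, DNA 6.13 and other −6.87. With siLuc DAC alone LTR was 0.967, LINE 33.7 and other 2.11, and with siStau1 DAC alone 11.05, 18.9 and 0.285, with SINE at −40.7. With siLuc DAC at 0 LTR was 12.3, LINE 3.65, SINE −14.8 and DNA −0.571. With siStau1 DAC at 0, on 13 copies, they were −0.377, 20.4, −19.97 and 4.15, with other at −4.24. Counting runs of copies within 10 rows once moved no class beyond its interval. The settings outside Alu, with each DAC library alone and with adjacent rows were chosen after seeing the data.

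By family, 10 reads moved hAT-Charlie to 4.02 (from 5.98), RTE-BovB to 0.238 (from 0.895), ERVL to 1.39 (from 2.895), Alu to −49.5 (from −57.0) and simple repeats to −0.0735 (from 0.0188). With 50 reads, on 9 copies, TcMar-Tigger was −0.760, hAT-Charlie −2.16, CR1 −0.566, L1 16.9, L2 6.98, RTE-BovB −0.104, ERV1 −1.87, ERVL −1.91, ERVL-MaLR 6.97, Alu −66.4, MIR 26.7 and simple repeats −3.20. The cause of these moves was not tested; 9 copies are too few to place a family.

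The median ratio of siStau1 DAC over siLuc DAC was −0.75 under the authors' factors and −0.21 with totals outside Alu. At a q-value under 0.01, 1 gene of the total RNA list was called for DAC in siLuc and 1 in siStau1. The median log2 ratio of the listed genes tested for DAC in siLuc ranged from 0.77 with 1 FPKM added to 2.04 with 0.01. No paired analysis was possible because the total RNA table gives 1 value per group and each J2 group has 1 library; fits without single replicates were not run for the same reason. A copy with few reads cannot be told from an unread copy at this depth.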
